A study of Oryza sativa with 15 samples.

Results

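A group of 43 rice genes was high after 30 min at 40 °C and had fallen back most of the way by 60 min, while the plants were still hot. The genes were chosen from these values themselves. Read counts were turned into CPM, the counts of a gene relative to those of its library, with TMM scaling, which adjusts each library for its composition, and averaged over the libraries of a group. A gene was taken if its mean was at least 20 CPM after 30 min of heat, at least 16 times the wet control and at least 8 times the mean after 60 min, with 0.1 CPM added to each mean before a ratio was formed. Of 24073 genes in the table, 50 met these limits. Among 8 loci left out by the rule, 7 had met them: HSP101, CLPB-M, HSP18.6, HSFA2A, HSFA2C, HSFB2A and HSFB2B. The remaining 43 genes, called the transient genes here, all passed the filter on low counts that was used for testing. Those with hardly any reads outside heat passed it only through the heat libraries, which also chose them. Since the rule used the heat and wet libraries, the rise at 30 min and the fall by 60 min are described below without a test.

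Messenger RNA came from whole shoots of the japonica rice cultivar Nipponbare, the genotype in every group, grown for 10 days in pots. The wet control stood in soil with 3 g of water per g, mild drought in 1.5 g per g and severe drought in 1.25 g per g. The heat groups were wet-soil pots moved to a chamber at 40 °C for 30 or 60 min, against growth at 30 °C in the light. All shoots were collected 6 h after dawn, 3 samples in each of the 5 groups. Nothing in the labels ties the 3 samples of a group to different pots or sowings. A p-value below therefore speaks only of the spread among these samples, and part of that spread may be technical.

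Plants answer sudden heat by activating heat shock factors, transcription factors that bind short repeated elements in front of their targets. Class A factors switch targets on, and many class B factors act as repressors. The targets include small heat shock proteins, which hold unfolded proteins in solution, and the larger chaperones HSP70 and HSP101, which take part in refolding them. In many organisms the response is damped while the heat lasts, as chaperones accumulate and bind the factors.

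Total counts were 49479059 to 77969214 per library. Of the green leaf markers, 3 of 4 were in the table, at 6880 to 26100 CPM in every library. Levels of other tissues' markers were low: the root silicon channel gene LSI1 stood at 11.5 to 33.3 CPM, the seed storage gene GLUA2 at 1.62 to 3.09 CPM, and LSI2 and the meristem gene OSH1 were listed at 0. The TMM factors of the 30 min libraries were 0.624 to 0.709, against 1.058 to 1.319 in the wet control and 1.064 to 1.131 at 60 min. Scaling by total counts alone therefore lowered the median gene by 0.88 on the log2 scale in the 30 min group relative to the wet control, and the part of composition in the results was not tested beyond this second scaling.

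The transient genes took up a large part of the sequenced RNA for a short time. Their summed share of all counts was 0.0472, 0.0492 and 0.0421% in the 3 wet control libraries. It was 3.4, 3.04 and 2.8% after 30 min of heat and 0.453, 0.459 and 0.48% after 60 min. This share is a scaling by total counts alone, without TMM factors. Every 30 min library was above every 60 min library, and every 60 min library above all others. The genes were chosen for high 30 min levels against wet and 60 min, so the place of the 30 min libraries follows from the rule. In mild drought the share was 0.0608, 0.0576 and 0.0568%, and in severe drought 0.0551, 0.0665 and 0.0576%, all above the wet control. That difference came from HSFA2D and LOC_Os03g51010: without them, a comparison added after seeing the data, the share of the other 41 genes was 0.0351, 0.0304 and 0.0317% in the wet control. In mild drought it was then 0.0307, 0.0311 and 0.0318%, and in severe drought 0.0307, 0.036 and 0.0302%, overlapping with the wet libraries. The loci left out by the rule added 3.02 to 3.36% of counts at 30 min.

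Across the 43 genes the mean level was 0.0274 to 81.6 CPM in the wet control, with a median of 1.4 CPM. It was 20.8 to 4500 CPM at 30 min, with a median of 492 CPM, and 1.95 to 494 CPM at 60 min, with a median of 31.4 CPM. The ratio of 30 min to wet ran from 17.7 to 11800 with a median of 220, and the ratio of 30 min to 60 min from 8.06 to 63 with a median of 10.6. In all 43 genes each 30 min library was above each of the 12 other libraries. The rule itself favours this order, so it describes how the genes were chosen. Between replicates the coefficient of variation had a median of 9.54% at 30 min, 8.92% at 60 min and 38.9% in the wet control, where many of the genes had few reads. CPM is not divided by gene length, so the order of genes by CPM is an order of reads, not of transcripts per cell.

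**Figure D1:**
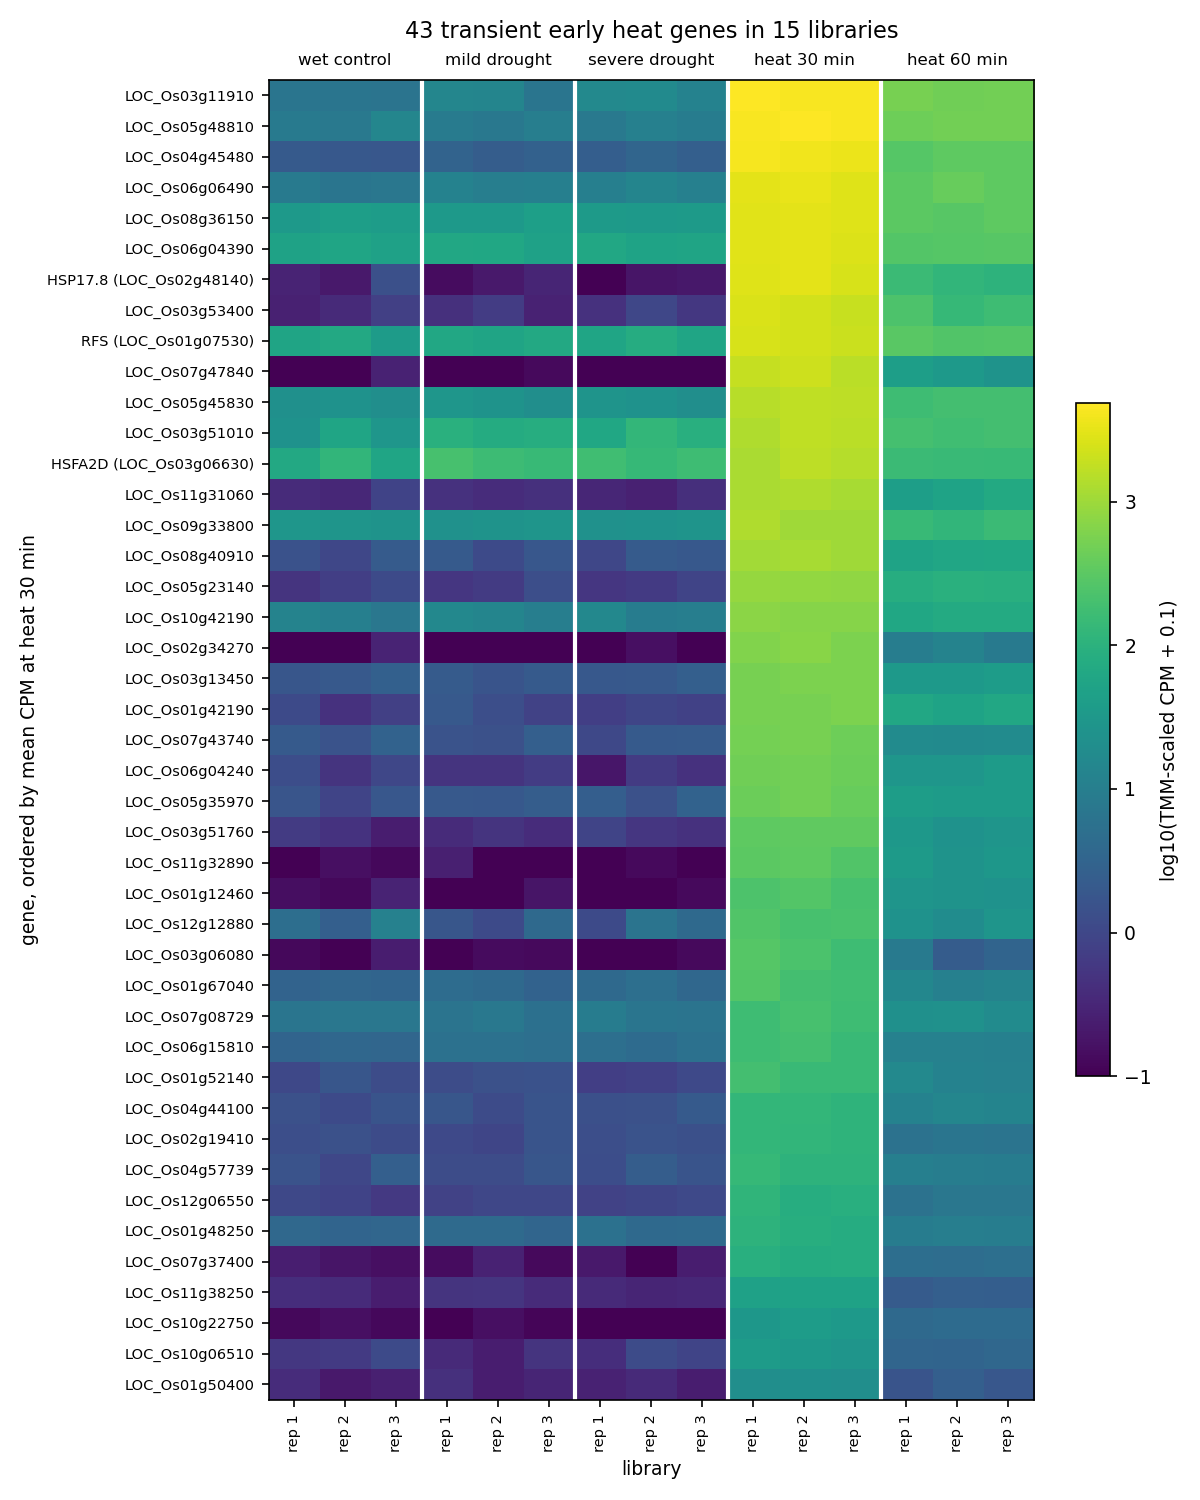
Levels of the 43 transient genes (rows, ordered by mean CPM at 30 min of heat) in the 15 libraries (columns, in 5 groups of 3 replicates). Colour gives log10 of TMM-scaled CPM plus 0.1. The 30 min columns are brightest for every gene, an order that the rule favours, and the 60 min columns stay brighter than the wet control.

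Gene names could be given to 3 of the 43. HSFA2D is a class A heat shock factor, HSP17.8 a small heat shock protein, and RFS a raffinose synthase, an enzyme that makes the protective sugar raffinose. HSFA2D came from a list of heat shock factors, and the other names were found after the values had been seen. The remaining 40 genes are given by their MSU locus identifiers, which the reference used here does not pair with names, and no role is given to them.

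HSFA2D (LOC_Os03g06630) was the transient gene with the highest level in unheated plants and the smallest rise. It had 67.6, 121 and 56 CPM in the wet control, 1210, 1650 and 1460 CPM at 30 min, and 156, 147 and 141 CPM at 60 min. The rise was 17.7-fold and the fall 9.76-fold, and the 60 min mean of 148 ± 7.98 CPM (SD, n = 3) was 1.81 times the wet mean of 81.6 ± 34.8 CPM. The 60 min libraries were all above the wet ones, the highest wet library (121 CPM) being close to the lowest of them.

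HSP17.8 (LOC_Os02g48140) was almost silent before heat. It had 0.199, 0.111 and 1.29 CPM in the wet control, 2900, 3170 and 2530 CPM at 30 min, and 154, 119 and 107 CPM at 60 min. Its ratio to wet was 4530 at 30 min and still 201 at 60 min, although the level had dropped 22.6-fold between the heat groups. The wet value depended on replicate 3, which was several times the others.

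RFS (LOC_Os01g07530) lay just inside the limits. It had 53.4, 68.4 and 37.9 CPM in the wet control, 2470, 2280 and 2040 CPM at 30 min, and 300, 263 and 270 CPM at 60 min, a rise of 42.4-fold and a fall of 8.14-fold. Its 60 min libraries were all above its wet ones, and the 60 min mean was 5.21 times the wet mean.

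The 6 genes that drew the most reads at 30 min are given first. LOC_Os03g11910 had 6.65, 6.42 and 6.26 CPM in the wet control, 4840, 4360 and 4310 CPM at 30 min and 519, 475 and 489 CPM at 60 min, a fall of 9.1-fold. LOC_Os05g48810 had 8.57, 7.83 and 13.8 CPM, then 4360, 4710 and 4420 CPM, then 455, 482 and 485 CPM, a fall of 9.49-fold. LOC_Os04g45480 had 2.06, 1.82 and 1.8 CPM, then 4180, 3780 and 3600 CPM, then 280, 327 and 331 CPM, a fall of 12.3-fold. In each of these genes the 3 groups were separated without overlap. LOC_Os06g06490 went from 8.24, 6.64 and 7.19 CPM to 3070, 3400 and 2910 CPM and back to 320, 387 and 335 CPM. LOC_Os08g36150 went from 34.3, 41.6 and 38.7 CPM to 3040, 3110 and 2850 CPM and back to 324, 299 and 340 CPM. LOC_Os06g04390 went from 50.8, 57.7 and 47.4 CPM to 3040, 3140 and 2760 CPM and back to 273, 279 and 288 CPM. The wet means of these genes were 1.89 to 52 CPM, and they fell 9 to 12.3-fold. The next in order of reads, HSP17.8, fell 22.6-fold, so a high level at 30 min did not go with one size of fall.

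The 3 steepest falls belonged to genes with hardly any reads before heat. LOC_Os07g47840 had 0, 0 and 0.175 CPM in the wet control, 1900, 2120 and 1610 CPM at 30 min and 41.4, 32.4 and 25.8 CPM at 60 min. Its rise of 11800-fold rests on 13 wet counts, all in replicate 3, and its fall was 56.3-fold. LOC_Os02g34270 had 0, 0 and 0.188 CPM, then 623, 709 and 581 CPM, then 9.6, 12.5 and 7.93 CPM, and its fall of 63-fold was the largest of the 43. LOC_Os03g06080 fell 48.6-fold, from 285, 226 and 170 CPM to 8.42, 2.17 and 3.1 CPM. Its 60 min coefficient of variation of 73.8% was the largest of the 43 genes, since replicate 1 lay above the others. LOC_Os07g43740, which had 2.13 CPM on average in the wet control, fell 27-fold, from 512, 521 and 443 CPM to 18.3, 17.7 and 18.3 CPM. LOC_Os11g31060 fell 22.6-fold, as HSP17.8 did, from 1210, 1330 and 1190 CPM to 41.9, 51.6 and 71.4 CPM.

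None of the 43 genes had returned to the wet control level at 60 min. Every 60 min library was above every wet library in 43 of 43 genes, where 24.7% of all genes tested had that order. The 60 min mean was at least 4 times the wet mean in 37 of the 43, against 2.57% of all genes tested. The ratio of 60 min to wet ran from 1.81 to 385 with a median of 9.65. Taken as the part of the rise that was left, 1.56 to 12.1% remained at 60 min, with a median of 7.81%. A gene had to be low in the wet libraries and high at 30 min to be chosen, and its 60 min level was capped by the rule, so these counts describe the genes and do not set them apart from others.

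The largest ratios of 60 min to wet belonged to genes that were nearly silent before heat. LOC_Os03g53400 had 0.174, 0.263 and 0.672 CPM in the wet control, 2670, 2310 and 1970 CPM at 30 min and 235, 140 and 167 CPM at 60 min, 385 times the wet mean. LOC_Os11g32890 had 0, 0.0554 and 0.0269 CPM, then 321, 328 and 258 CPM, then 35.9, 25.1 and 29.7 CPM, 238 times the wet mean. LOC_Os07g47840 and HSP17.8 followed with 210 and 201 times. The wet means behind these ratios are small, and that of LOC_Os11g32890 rests on 6 counts. As a part of the rise the order was different: LOC_Os10g22750 kept the most, 12.1%, and LOC_Os02g34270, LOC_Os07g47840 and LOC_Os03g06080 the least, 1.56, 1.77 and 1.99%.

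The smallest ratios of 60 min to wet, after that of HSFA2D, were in genes with 3.15 to 6.91 CPM in the wet control. LOC_Os01g48250 had 3.71, 3.13 and 3.41 CPM in the wet control, 105, 87.3 and 80.6 CPM at 30 min and 8.99, 9.91 and 9.61 CPM at 60 min, 2.73 times wet. LOC_Os07g08729 had 6.41, 7.14 and 7.18 CPM, then 170, 214 and 169 CPM, then 22.2, 23.5 and 18.3 CPM, 3.06 times wet. LOC_Os06g15810 had 3.11, 3.63 and 3.47 CPM, then 168, 189 and 151 CPM, then 11.5, 11.3 and 10.8 CPM, 3.23 times wet. In these genes too the 60 min and wet libraries were apart by more than the spread within either group. LOC_Os12g12880 at 3.74 and LOC_Os01g67040 at 3.92 completed the 6 genes under 4 times.

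**Figure D2:**
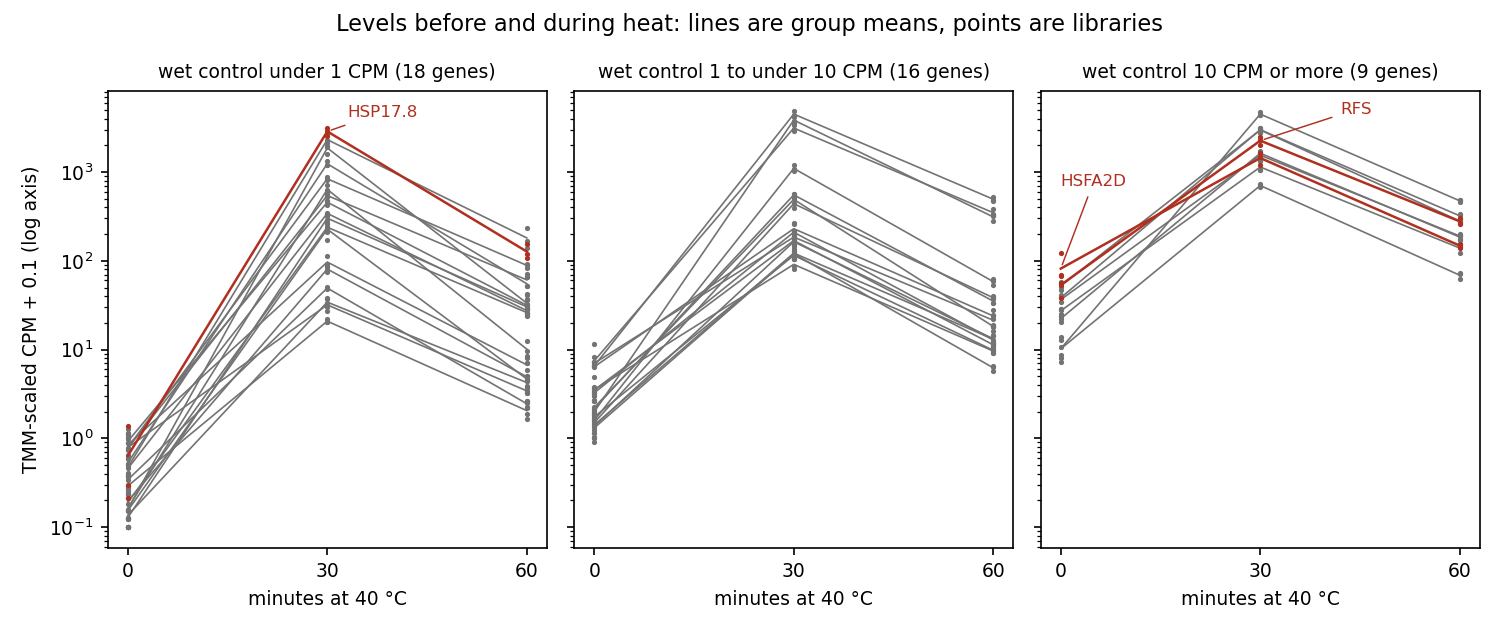
TMM-scaled CPM plus 0.1 (log axis) of each transient gene in the wet control (drawn at 0 min) and after 30 and 60 min at 40 °C, split by the wet control mean into panels of 18, 16 and 9 genes. Lines join group means, points are single libraries, and the 3 named genes are in red. Every line peaks at 30 min, as the rule requires. The 60 min points of the panel with under 1 CPM lie farthest above their start.

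Split by the starting level, 18 genes had a wet mean under 1 CPM. Their median was 322 CPM at 30 min, and their median ratio of 60 min to wet was 61.2. Another 16 genes started between 1 and 10 CPM, with a median of 220 CPM at 30 min and a median ratio of 8.7 at 60 min. The 9 genes that started at 10 CPM or more had medians of 1630 CPM and 5.39. The fall from 30 to 60 min differed less between these classes, with median ratios of 13.6, 12 and 9.35. Over the 43 genes the level at 30 min and the size of the fall had a Spearman rho of -0.12, and the wet level and the ratio of 60 min to wet a rho of -0.57. These values come from the same 9 libraries, the wet mean enters its own ratio, and the limits of the rule bound both, so they are a description over genes.

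In the class under 1 CPM these genes were Os03g53400, Os07g47840, Os11g31060, Os05g23140, Os02g34270, Os01g42190, Os06g04240, Os03g51760, Os11g32890, Os01g12460, Os03g06080, Os12g06550, Os07g37400, Os11g38250, Os10g22750, Os10g06510 and Os01g50400 (each with the prefix LOC_), besides HSP17.8. The class from 1 to 10 CPM held Os03g11910, Os04g45480, Os06g06490, Os08g40910, Os03g13450, Os07g43740, Os05g35970, Os12g12880, Os01g67040, Os07g08729, Os06g15810, Os01g52140, Os04g44100, Os02g19410, Os04g57739 and Os01g48250. The class at 10 CPM or more held Os05g48810, Os08g36150, Os06g04390, Os05g45830, Os03g51010, Os09g33800 and Os10g42190, besides RFS and HSFA2D. The last 3 in order of reads at 30 min, LOC_Os10g22750, LOC_Os10g06510 and LOC_Os01g50400, fall outside the naming rule, which stopped at 40, and were named after their values were seen.

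The 18 genes with little wet signal were not equally low in the wet libraries. Their summed level was 6.07, 4.34 and 8.05 CPM in the wet replicates, and 9 of the 18 were highest in replicate 3, against 7 in replicate 1 and 2 in replicate 2. In the 6 drought libraries the sum was 4.15 to 6.01 CPM. At 30 min, replicate 3 was the lowest library for 29 of the 43 genes and replicate 2 the highest for 23. Whether these differences come from the plants or from the libraries was not tested.

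The limits of the rule cut through a continuous range. Just inside stood LOC_Os10g22750, with a ratio of 30 to 60 min of 8.06, LOC_Os03g51010 with 8.13 and RFS with 8.14. Just outside stood LOC_Os04g10690 with 7.89, LOC_Os03g08250 with 7.86 and LOC_Os03g49430 with 7.85. Of the 249 genes that had at least 20 CPM at 30 min and at least 16 times wet, 50 (20.1%) had fallen 8-fold or more by 60 min. Another 92 had fallen 4-fold to under 8-fold, 77 had fallen 2-fold to under 4-fold, 28 less than that, and 2 were higher at 60 min. The median fall over the 249 was 4.5-fold.

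The scaling set how steep the fall looked. With total counts alone the ratio of 30 to 60 min of the 43 genes was 4.78 to 37.5 with a median of 6.31, and the ratio of 30 min to wet was 9.84 to 7160 with a median of 120. No gene of the 43 changed direction, but 15 met all limits on that scale. Of the 43, 40 still met the limit against wet, so it was the limit against 60 min that most missed. Over the 249 strongly raised genes the median fall was 2.67-fold by total counts, with 232 still lower at 60 min and 17 higher. The ratio of 60 min to wet hardly moved, at 1.71 to 365 with a median of 9.13.

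**Figure D3:**
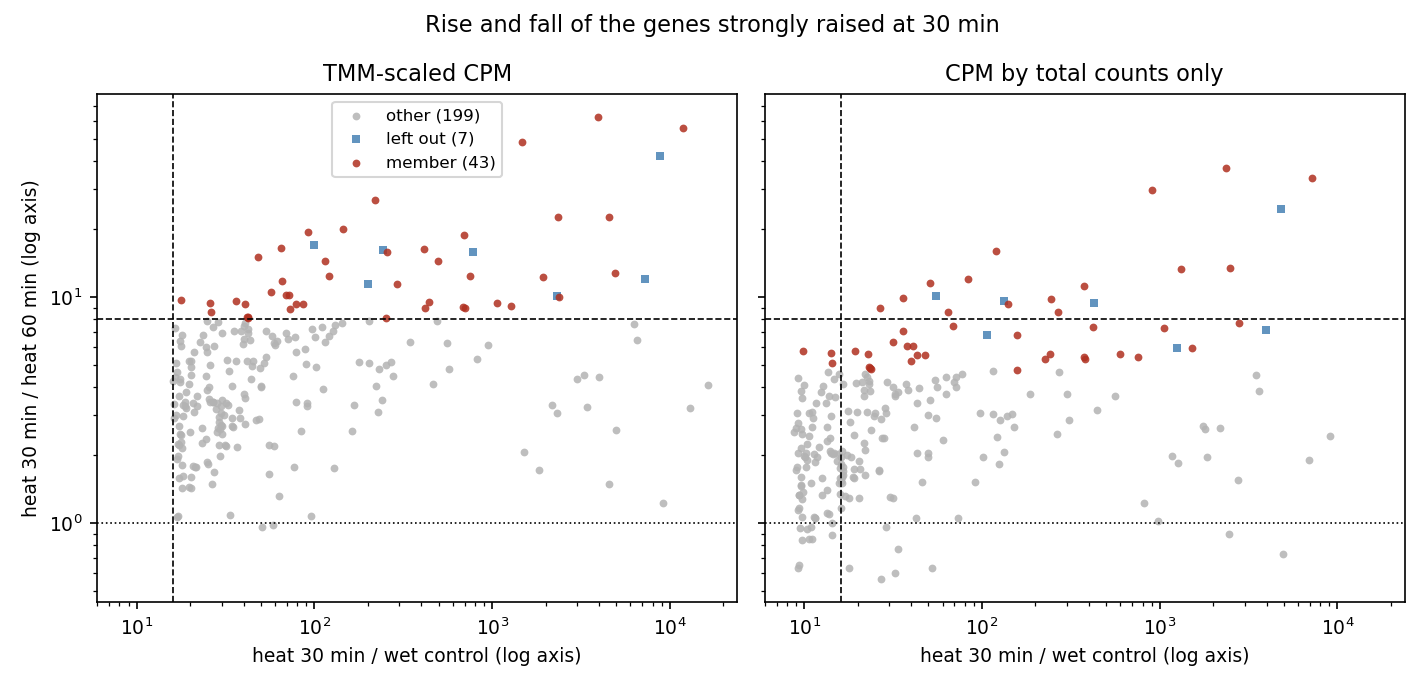
Ratio of heat 30 min to wet control (x axis, log) against ratio of 30 to 60 min (y axis, log) for the 249 genes with at least 20 CPM and 16 times wet at 30 min, under TMM scaling (left) and total counts alone (right). Dashed lines mark the limits of 16 and 8 and the dotted line equal levels; on the right all points move down and left, and 15 of the 43 transient genes stay beyond both limits.

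Drought was not used to choose the genes, apart from the wet control that the drought comparisons share with the rule. In mild drought the median log2 fold change of the 43 genes against the wet control was 0.02, where that of all genes tested was 0. At the threshold of 0.05, 1 gene was higher and 0 were lower, against 0.909% of all genes called higher and 0.528% called lower (edgeR quasi-likelihood F-test, Benjamini-Hochberg adjusted p). In severe drought the median was 0.08, against -0.02 for all genes, and 4 genes were higher and 0 lower, against 1.64% and 1.05% of all genes. Without adjustment, 11 genes in mild and 14 in severe drought had p under 0.05, and 22% and 18.9% of all genes did. Libraries did not overlap for 6 genes higher and 1 lower in mild drought, where 10.3% and 9.37% of all genes had that order. In severe drought this held for 8 genes higher and 2 lower, against 10.9% and 8.98%. The genes were chosen for low wet values and both drought groups are set against the same 3 wet libraries, so the directions are not independent of the rule or of each other. Genes that passed the filter on low counts only through their heat libraries stay in these medians and counts. Examples are LOC_Os07g47840, with 13, 2 and 0 counts in the wet, mild and severe groups, and LOC_Os11g32890, with 6, 8 and 2. Their drought values rest on few reads.

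LOC_Os03g11910 had 6.65, 6.42 and 6.26 CPM in the wet control, 14, 13.2 and 6.43 CPM in mild drought and 16, 17.4 and 12 CPM in severe drought. All severe libraries were above all wet ones, while mild replicate 3 lay at the wet level. The log2 fold change in severe drought was 1.23 ± 0.25 (SE, n = 3 per group), with an edgeR adjusted p of 0.020, and in mild drought it was 0.79 ± 0.24 with an adjusted p of 0.10. LOC_Os03g51010 had 24, 56.6 and 28.6 CPM in the wet control, 93.9, 75.5 and 83.8 CPM in mild drought and 61.4, 126 and 89.2 CPM in severe drought. Both drought groups were above the wet control without overlap, although the severe libraries spread widely. Its log2 fold change was 1.34 ± 0.31 in severe drought (edgeR adjusted p = 0.039) and 1.21 ± 0.31 in mild drought (edgeR adjusted p = 0.070).

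LOC_Os06g15810 passed the threshold in both drought groups, with small changes. It had 3.11, 3.63 and 3.47 CPM in the wet control, 5.53, 5.41 and 4.97 CPM in mild drought and 5.05, 4.2 and 5.38 CPM in severe drought, without overlap with the wet libraries. The log2 fold change was 0.64 ± 0.12 in mild (edgeR adjusted p = 0.026) and 0.52 ± 0.12 in severe drought (edgeR adjusted p = 0.043). LOC_Os06g06490 had 8.24, 6.64 and 7.19 CPM in the wet control, 12, 10 and 10.6 CPM in mild drought and 10.4, 13.6 and 10.7 CPM in severe drought. Its drought libraries were all above its wet ones, with 0.65 ± 0.16 in severe (edgeR adjusted p = 0.047) and 0.56 ± 0.16 in mild drought (edgeR adjusted p = 0.086).

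HSFA2D had 67.6, 121 and 56 CPM in the wet control, 208, 163 and 143 CPM in mild drought and 174, 140 and 169 CPM in severe drought. Its drought libraries did not overlap with the wet ones. The log2 fold change of 1.07 ± 0.26 in mild and 0.98 ± 0.26 in severe drought had edgeR adjusted p of 0.058 and 0.063, over the threshold. Its mean levels of 172 CPM in mild and 161 CPM in severe drought stand beside 148 CPM after 60 min of heat and 1440 CPM after 30 min. HSP17.8 had 0.0405, 0.107 and 0.205 CPM in mild drought and 0, 0.0866 and 0.101 CPM in severe drought. Against the wet libraries of 0.199, 0.111 and 1.29 CPM, all severe libraries were lower and mild replicate 3 overlapped with wet replicates 1 and 2. The wet mean came mostly from replicate 3, and the log2 fold changes of -2.11 ± 0.84 and -3 ± 0.93 did not pass (edgeR adjusted p = 0.17 and 0.11).

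None of the drought calls held with every library left out in turn. LOC_Os03g11910 lost its severe call without wet control replicate 1 or 3 or severe replicate 1 or 2, and LOC_Os03g51010 without wet control replicate 1 or 3 or severe replicate 2 or 3, and LOC_Os06g06490 lost it whichever wet or severe library was left out. LOC_Os06g15810 kept its severe call without severe replicate 2 alone, and its mild call without wet control replicate 2 or mild replicate 3. By total counts, with the replicate block or with the compared groups alone, neither LOC_Os06g15810 nor LOC_Os06g06490 passed in either drought group. By DESeq2 both passed in both. LOC_Os03g11910 and LOC_Os03g51010 kept their severe calls by total counts and with the block, but not with the compared groups alone. HSFA2D passed in both drought groups when wet control replicate 2 was left out, in mild drought also without mild replicate 3, and in both by DESeq2 and by total counts. HSP17.8 passed as lower in severe drought without wet control replicate 2, and in both drought groups by DESeq2. Over these fits the adjusted p of LOC_Os03g11910 in severe drought was 4.7e-05 to 0.076, and that of HSFA2D in mild drought 0.0012 to 0.34.

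**Figure D4:**
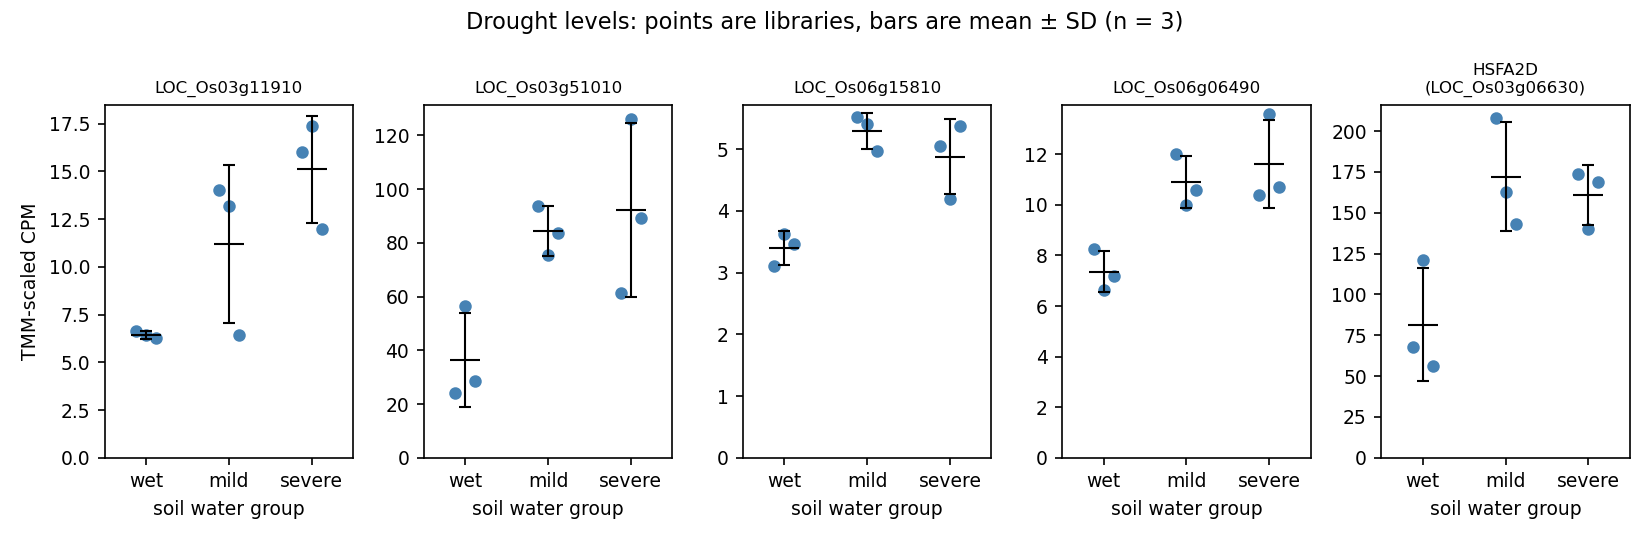
TMM-scaled CPM (linear axes from 0) of the 4 transient genes past the threshold in a drought comparison and of HSFA2D, in the wet control, mild drought and severe drought. Points are libraries and bars are mean ± SD (n = 3); the severe drought points lie above all wet points in each panel, with mild replicate 3 of LOC_Os03g11910 at the wet level.

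Between severe and mild drought 0 of the 43 genes passed, as did 0% of all genes by edgeR, and 0 of the 43 passed by DESeq2, which called 0.21% of all genes. At an unadjusted p under 0.05, 5 of the 43 differed, 1 higher and 4 lower in severe drought, against 2.78% of all genes. Some genes had no read at all under drought. LOC_Os07g47840 and LOC_Os10g22750 had 0 counts in the 3 severe libraries, where 3 counts over the group would be 0.0164 CPM, and 13 and 8 counts in the wet control. LOC_Os02g34270 had 0 counts in mild drought, where that limit is 0.0156 CPM, and 14 counts in the wet control. Limits of this kind cover counting error only. A lower level in these genes rests on few reads, mostly of wet control replicate 3 in LOC_Os07g47840 and LOC_Os02g34270. The 8 wet counts of LOC_Os10g22750 were spread over the replicates, at 0.0248, 0.0554 and 0.0269 CPM. Its log2 fold change in severe drought against the wet control was -4.27 ± 1.09 and did not pass (edgeR adjusted p = 0.068).

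The transient genes were spread over all 12 chromosomes, with 7 each on chromosomes 1 and 3, 4 each on 5, 6 and 7, 3 each on 2, 4, 10 and 11, 2 each on 8 and 12, and 1 on 9. No pair of them was adjacent in the table. The closest pair was LOC_Os06g04240 and LOC_Os06g04390, with 11 other genes of the table between them. LOC_Os06g04240 had 1.18, 0.416 and 0.874 CPM in the wet control, 466, 477 and 429 CPM at 30 min and 28.3, 28.9 and 37.1 CPM at 60 min. It fell 14.5-fold where LOC_Os06g04390 fell 10.6-fold.

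The loci next to the transient genes were, as a group, higher at 30 min of heat than genes in general, a comparison chosen after seeing the data. Of 86 loci that stood directly before or after a transient gene in the table, 74 were tested. At 30 min against the wet control 31 of them (41.9%) were higher and 9 (12.2%) lower (edgeR, adjusted p under 0.05), where 19.3% of all genes were higher and 19.6% lower. Their median log2 fold change was 0.36, against -0.14 for all genes tested. By total counts, which moved all genes down, 8 of the 74 were higher and 33 lower, with 7.23% and 61% for all genes. Loci whose number differed by at most 10 gave 19 higher and 4 lower of 42 (45.2% and 9.52%). Leaving out each library in turn gave 24 to 28 higher of 74.

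Most of these neighbours changed little, and 7 of the 74 (9.46%) rose 4-fold or more, where 5.07% of all genes did. LOC_Os02g34250, beside LOC_Os02g34270, rose from 0.0179 ± 0.031 to 6.42 ± 1.03 CPM at 30 min and was at 1.45 ± 0.354 CPM at 60 min (SD, n = 3). LOC_Os01g12464, beside LOC_Os01g12460, rose from 0.593 ± 0.0625 to 32.5 ± 1.54 CPM and was at 11.3 ± 0.909 CPM at 60 min. LOC_Os11g38260, beside LOC_Os11g38250, rose from 192 ± 33.4 to 1230 ± 236 CPM and was at 718 ± 43.4 CPM at 60 min. Each of the 3 fell less steeply than the transient gene beside it, which had been chosen for a fall of at least 8-fold. The libraries were stranded, but whether the counting used strand is not given in the sources used here, so reads of overlapping or antisense genes may be shared between neighbours. That part in the result was not tested.

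**Figure D5:**
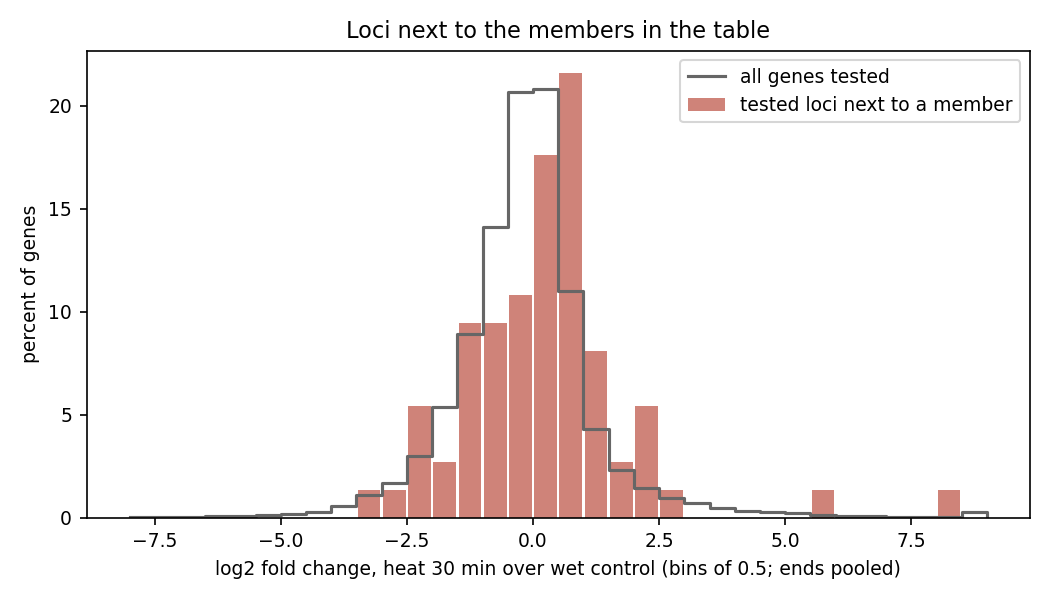
Log2 fold change of heat 30 min over wet control (x axis, bins of 0.5) for the 74 tested loci next to a transient gene (bars) and for all 20462 genes tested (line), each as percent of its set (y axis). The bars and the line overlap widely, with medians of 0.36 and -0.14. The bars are clearly taller in the bins starting at 0.5 and 1, but also taller in some bins below 0. Most neighbours changed by less than 4-fold.

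Other genes of the heat response, outside the rule, were also raised at 30 min. Of heat shock protein genes outside the 43 and the left-out loci whose name could be checked in the reference, 17 of 17 were higher at 30 min (edgeR, adjusted p under 0.05), with a median log2 fold change of 11.11, and 17 of 17 were higher at 60 min than in the wet control, where 19.3% and 16.2% of all genes were. Between 30 and 60 min 12 of the 17 fell and 0 rose, where 13.9% and 10.4% of all genes did, with a median of -1.78. Most of the 17 were small heat shock protein genes by name. With the loci of unchecked name included, 28 of 30 were higher and 1 lower at 30 min, with a lower median of 8.64. At 60 min against wet the median of the 30 was 6.22, against 9.52 for the 17. By total counts 16 of the 17 were higher at 30 min, and 7 fell between 30 and 60 min, where 7.23% of all genes were higher and 3.32% fell. HSP26.7, a small heat shock protein, stood at 1.1 ± 1.71 CPM in the wet control, 11000 ± 723 CPM at 30 min and 8940 ± 690 CPM at 60 min. HSP23.2 stood at 0.51 ± 0.769, 10000 ± 1120 and 2450 ± 315 CPM, and HSP21.9 at 0.34 ± 0.567, 2850 ± 303 and 442 ± 31.4 CPM (SD, n = 3). In each of them the wet mean came mostly from replicate 3, at 3.07, 1.4 and 0.995 CPM. These 3 genes had ratios of 30 to 60 min of 1.23, 4.09 and 6.45, against 22.6 for HSP17.8, and they were not shown by a test to differ from it.

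Of 16 other heat shock factor genes with a checked name, 10 were higher and 1 lower at 30 min, with a median log2 fold change of 1.73. Of all genes, 19.3% were higher and 19.6% lower. Between 30 and 60 min 2 of the factors rose and 7 fell, with a median of -0.48, where 10.4% of all genes rose and 13.9% fell. By total counts 8 factors were higher and 3 lower at 30 min, where 7.23% and 61% of all genes were. Then 5 factors rose and 6 fell by total counts, with a median of 0.27. That scaling moved the median of all genes by 0.76 between the heat groups, where 49.2% of all genes then rose and 3.32% fell, so the sign of the factors' median follows the scaling. HSFA2B, of class A, rose by 3.6 ± 0.35 (SE, log2) at 30 min and fell by 2.36 ± 0.33 from 30 to 60 min (edgeR adjusted p = 3.7e-06 and 0.00029). HSFB2C, of class B, rose by 5.14 ± 0.21 and fell by 1.43 ± 0.18 (edgeR adjusted p = 6.9e-10 and 0.00013). HSFC2B had the shape of a transient gene at a lower level, at 0.319 ± 0.192 CPM in the wet control, 9.84 ± 5.44 CPM at 30 min and 1.09 ± 0.32 CPM at 60 min (SD, n = 3). Its ratio of 30 to 60 min was 8.35, and it missed the rule by its level.

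The other lists held signalling and stress regulators. Of 9 DREB1 and DREB2 factors, regulators of drought and cold genes, 6 were higher and 0 lower at 30 min, and of 4 calmodulin-like proteins, which bind calcium, 4 were higher and 0 lower. Of 4 WRKY factors 1 was higher. Of 10 TIFY repressors of jasmonate signalling 2 were higher and 1 lower, and of 3 NAC factors 1 was lower. Of all genes tested, 19.3% were higher and 19.6% lower, so the WRKY and TIFY counts do not set those lists apart. Between 30 and 60 min, 13.9% of all genes fell and 10.4% rose. Of the lists, 2 of the DREB factors and 1 of the calmodulin-like genes fell, and 1 TIFY and 1 NAC gene rose. With a replicate block these were 1 DREB and 2 calmodulin-like genes falling, 1 TIFY gene rising and no NAC gene. By total counts 3 of 9 DREB factors and 4 of 4 calmodulin-like genes were higher at 30 min, and 5 of 10 TIFY genes lower, against 7.23% higher and 61% lower of all genes. Over all lists 40 were higher and 3 lower of 63 at 30 min, and 4 rose and 22 fell after that, which became 31 and 9, then 13 and 15, by total counts. By that scaling 49.2% of all genes rose and 3.32% fell from 30 to 60 min.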

How the data were processed

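Stranded mRNA libraries were made from whole rice shoots, 5 groups of 3, grouped by the sample titles. The deposited values are raw read counts per gene, made by the authors with Trimmomatic, HISAT2 and featureCounts, per the submitters' processing notes; those notes name no versions, and the build and strand setting were not given. Total counts were 49479059 to 77969214 per library, and 3 counts were 0.0385 to 0.0606 CPM. Replicates of a group differed by more than sampling noise (chi-square per gene of 31.1 or more).

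Tests used edgeR 4.0.16 in R 4.3.3. Its filterByExpr (minimum count 10, minimum total 15) kept 20462 genes, which were fitted with TMM factors and a robust quasi-likelihood model with 1 mean per group over all 15 libraries, with Benjamini-Hochberg adjustment over all genes tested. SE is the log2 fold change divided by the square root of F. The script was tested on simulated counts.

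The members and lists were chosen with earlier results of these data known. Of 126 listed loci 120 were in the table, and 74 were used, whose symbol in the reference (assembly ASM3414082v1) lay within 1000 kb of the expected place on the chromosome; 7.96% of other named genes would. For 30 names the symbol was chosen after the reference was seen. HSFA2D lay 33 kb, HSP17.8 102.4 kb and RFS 15.8 kb from the expected place, and tandem neighbours cannot be told apart this way. All genes of the group were named up to 40, in order of CPM at 30 min. Library values were given for the 8 highest, the extremes of the ratios, genes past a drought threshold and genes with a symbol, and up to 3 genes were named per list. No C2H2 zinc finger gene, and no ERF gene of the DREB and ERF list, passed the name check.

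Replicate numbers were checked as pairs by the correlation of deviations from group means: only 30 against 60 min had every same-numbered pair over 0.1 (0.21 to 0.45, others -0.42 to 0.27). This pairing is read from the data, as the labels give only numbers. Alternatives were RLE factors, total counts, DESeq2 1.42.0, a replicate block, no filter, a fit of the compared groups alone, other limits of the rule and each library left out. Neighbouring loci, all fixed loci and the share of counts without a pair of genes were chosen after seeing the data.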

Additional observations from a re-analysis of the deposited data

How the results depend on the processing

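The number of genes meeting the rule was 43; it was 15 by total counts, 173 with fold limits of 8 and 4, 11 with limits of 32 and 16, and 41 to 49 with a library left out, the most without 30 min replicate 3. The 15 follow from the lower 30 min values of that scaling, and the 173 and 11 from the limits. RLE factors, other added values and other CPM limits gave 40 to 48. In mild drought, 1 gene passed; 0 passed with the replicate block or the compared groups alone, 8 by DESeq2 (6 higher, 2 lower), which called 11.9% of all genes there, and 0 to 4 with a library left out. In severe drought, 4 passed; 2 passed with no filter, 2 with the replicate block, 0 with the groups alone, 8 by DESeq2 (6 higher, 2 lower; 8.86% of all genes), and 0 to 4 with a library left out. For these drought counts the cause was not tested. The replicate numbers do not pair the drought and wet samples, which share only a number. The block gave 25 listed genes changed from 30 to 60 min in place of 26, with single calls of 3 lists changed. Listed genes past the threshold were 43 at 30 min and 26 between heat groups, which became 65 and 44 with all fixed loci, since more genes were tested; with a library left out they were 37 to 42 and 20 to 22, and 32 to 40 (main 38) at 60 min against wet. The fall of HSP26.7 from 30 to 60 min (-0.30, not past the threshold) was 0.46 by total counts. Neighbours higher at 30 min were 31, which became 8 by total counts and 19 within a locus number of 10, where fewer were tested. At 60 min, 43 of 43 genes were above wet in every library left out, and 36 to 39 were at least 4 times wet. The planned promoter motif search was not run, as no sequence was at hand. Levels under about 1 CPM rest on few counts.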
